A study of Rattus norvegicus with 12 samples.

Results

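Among the transcripts measured in rat mixed CNS glial cell cultures, the CXC and CX3C chemokines described here are Cxcl1, Cxcl2, Cxcl10, Cxcl12 and Cx3cl1. These 5 genes were chosen by name, with their differences between cytokine-treated and control cultures in these same arrays already in view. Every probe set that the annotation of the array assigns to them was taken. That gave 5 probe sets of 8740 on 3 of the 5 genes, 1 for Cxcl2 (U45965_at), 1 for Cxcl10 (U17035_s_at) and 3 for Cx3cl1 (AF030358_g_at, AF030358_at and rc_AA800602_s_at). The annotation named no probe set for Cxcl1 or Cxcl12, so these genes have no values here, whether or not the array holds probes for them. The paper states that its authors' earlier report described upregulation of Gro-alpha (CXCL1) by Th1 cytokines. Because the genes were selected on their differences between treated and control cultures, those differences are given as a description, with no test.

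The cultures were prepared from the brains of newborn rats and treated with cytokine mixtures for 6 h, and their RNA was hybridized to 12 Affymetrix rat expression arrays. There were 3 experiments with different cultures, each holding a control, a Th1, an M/M (monocyte/macrophage, "mono macro" in the labels) and a Th2 culture, so that each group had 3 arrays. All cultures, controls included, were kept in a defined medium that held 2% fetal bovine serum, and each cytokine was given at 10 ng/ml. The labels list TNF-a, interferon-g, IL-2 and g-CSF for Th1, TNF-a with IL1a, IL1b and IL-12p40 for M/M, and IL-10, IL-5, porcine TGF-b1 and G-CSF for Th2, so that TNF-a was shared by Th1 and M/M. The study's methods also name IL-6 in the M/M mixture and IL-4 in the Th2 mixture. The signals are linear intensity values calculated by the authors with dChip, and the number of arrays limits the precision.

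Chemokines are small secreted proteins that draw leukocytes along a gradient by way of G protein-coupled receptors. In the CXC class a residue lies between the first cysteines, and in the CX3C class several do. CXC ligands that carry a glutamate-leucine-arginine motif, such as Cxcl1 and Cxcl2, attract neutrophils through Cxcr2, whereas the interferon-inducible Cxcl10 lacks the motif and attracts activated T cells through Cxcr3. Cx3cl1 (fractalkine) stands on the cell surface on a mucin stalk until metalloproteases such as Adam10 and Adam17 release it, and its receptor Cx3cr1 is carried in brain by microglia. Cxcl12 acts through Cxcr4 and Ackr3. Transcription of Cxcl2, Cxcl10 and Cx3cl1 is known to respond to NF-kappaB, and that of Cxcl10 also to interferon through STAT and IRF factors.

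The 250 bases before the start of each measured gene are shown because the genes differ there in the letters known to be read by these factors. The sequences are those of RefSeq on build GRCr8, written 5′ to 3′ on the strand of the gene, and capitals mark matches to the kappaB consensus or to the core of the interferon-stimulated response element. Cxcl2 lies on the minus strand and its window at chr14:17467256-17467505. Cxcl10 lies on the plus strand, with its window at chr14:15988816-15989065. Cx3cl1 lies on the minus strand, with its window at chr19:10242821-10243070.
Cxcl2: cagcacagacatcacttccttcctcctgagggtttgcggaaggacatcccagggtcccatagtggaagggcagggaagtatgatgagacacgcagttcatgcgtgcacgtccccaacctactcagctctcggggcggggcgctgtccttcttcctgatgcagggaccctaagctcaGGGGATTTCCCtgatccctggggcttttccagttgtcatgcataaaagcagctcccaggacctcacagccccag
Cxcl10: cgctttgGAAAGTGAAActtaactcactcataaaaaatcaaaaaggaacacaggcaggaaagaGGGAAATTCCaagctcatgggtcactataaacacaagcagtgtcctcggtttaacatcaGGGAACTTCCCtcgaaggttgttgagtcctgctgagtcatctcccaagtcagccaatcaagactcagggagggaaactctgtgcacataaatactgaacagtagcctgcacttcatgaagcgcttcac
Cx3cl1: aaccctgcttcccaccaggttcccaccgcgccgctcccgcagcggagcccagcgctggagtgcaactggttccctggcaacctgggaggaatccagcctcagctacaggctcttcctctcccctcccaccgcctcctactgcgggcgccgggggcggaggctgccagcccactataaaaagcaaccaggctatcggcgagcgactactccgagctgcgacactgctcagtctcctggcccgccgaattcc

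On both strands 5 motifs were searched, namely kappaB, the interferon-stimulated response element core TTTCNNTTTC, the gamma-activated sequence TTCNNNGAA, the AP-1 site TGANTCA and the TATA box TATAAA. In the Cxcl2 window the capitals hold a pair of overlapping kappaB matches, from -74 to -65 and from -73 to -64 relative to the start. The Cxcl10 window holds kappaB matches from -187 to -178, from -128 to -119 and, overlapping the latter, from -127 to -118. It also holds the response element core from -243 to -234, which lies on the opposite strand and shows as GAAAGTGAAA on the printed strand. An AP-1 site from -96 to -90 and a TATA box from -162 to -157 are also there. The Cx3cl1 window holds a TATA box from -78 to -73 and no match to the other motifs. Among all 33469 rat promoters in windows of the same 250 bases, 6.33% held a kappaB match, 3.41% the response element core, 7.67% the gamma-activated sequence, 6.34% an AP-1 site and 12.9% a TATA box. These matches are letters in a window and do not show that a factor binds there.

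Before the values are given, the labels of experiment 3 need a remark, since its arrays went against them. The check used 4365 probe sets with at least median signal, with the chemokines left out, and set the deviations of each array from the mean of its experiment against those of the arrays of other experiments. Across these probe sets, which are not independent replicates, arrays with the same label correlated between experiments 1 and 2 at 0.391 (control), 0.531 (Th1), 0.649 (M/M) and 0.669 (Th2). In experiment 3 the array labelled M/M correlated at 0.623 and 0.492 with the Th1 arrays of experiments 1 and 2, and at 0.236 and 0.171 with their M/M arrays. The array labelled Th2 correlated at 0.552 and 0.427 with the M/M arrays, and at -0.191 and -0.206 with the Th2 arrays. The array labelled Th1 correlated at -0.499 and -0.379 with the Th1 arrays, at 0.477 and 0.298 with the control arrays, and at 0.427 and 0.318 with the Th2 arrays. The experiment 3 control, on which every ratio of that experiment depends, correlated at 0.474 and 0.231 with the control arrays and at 0.264 and 0.326 with the Th2 arrays. No array was moved to another group, and results are therefore given with and without experiment 3. The check that singled out experiment 3 used the same arrays and did not set the pathway genes aside. Calls over experiments 1 and 2 alone are therefore not independent of that choice, and they rest on fewer arrays.

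**Figure D1:**
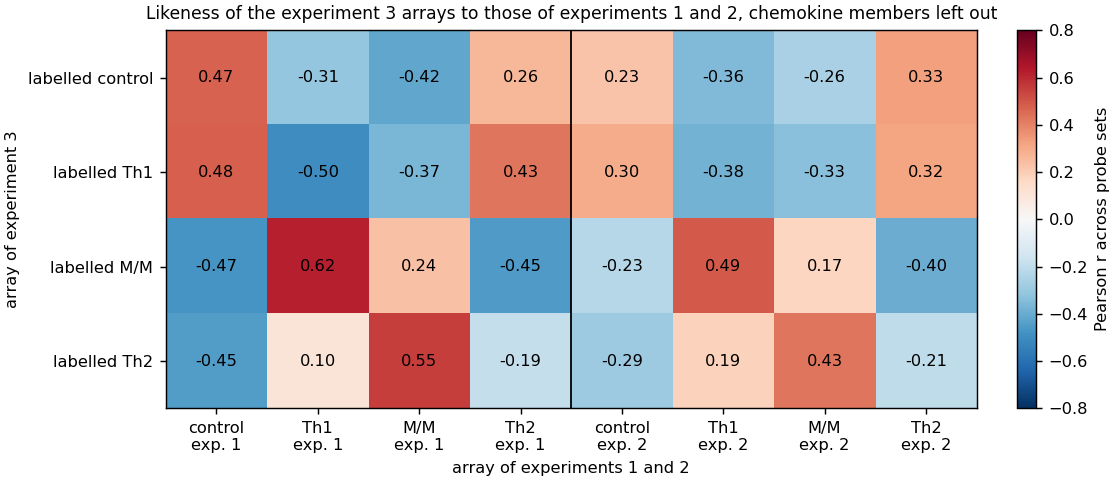
Pearson correlation, across 4365 probe sets without the chemokines, of each array of experiment 3 (rows) with each array of experiments 1 and 2 (columns); colour and number give r for deviations of log2 signal from the mean of the 4 arrays of an experiment. The row labelled M/M has its highest values, 0.62 and 0.49, under Th1, and the row labelled Th2 its highest, 0.55 and 0.43, under M/M.

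Median signals of the arrays lay between 38.4 and 61 in experiments 1 and 2 and between 24.5 and 42.2 in experiment 3. The 38.4 was that of the experiment 2 control, whose treated arrays had 56 to 61. In experiment 3 the array labelled M/M had 42.2 and its control 26.9. Arrays were not rescaled, so the ratios to these controls include such differences. The deposited signals of experiment 3 also carry fewer decimals, as in 31.2 against 50.59 and 6.25 for Cxcl2 in control arrays. Low signals differ too, with Cxcr5 at exactly 1 in several arrays of experiments 1 and 2. Cxcl3 had 0.7 in the experiment 3 array labelled M/M. Whether the signals of experiment 3 were calculated like the others was not tested, which limits comparison of signals between experiments. The log2 difference from control had a median over all probe sets of 0.14 in Th1, 0.33 in M/M and 0.19 in Th2 cultures, and of 0.21, 0.18 and 0.19 in experiments 1 and 2. The cultures held signal for the lists of glial markers, although some markers, among them Gfap, Cd68 and Tyrobp, have no named probe set. Since whole cultures were measured, fewer cells of a type and less RNA per cell cannot be told apart.

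The neutrophil-attracting chemokine Cxcl2 was highest with M/M cytokines in experiments 1 and 2 and intermediate with Th1 cytokines. In control cultures its signal was 50.59, 6.25 and 31.2 in experiments 1, 2 and 3. In the arrays labelled Th1 it was 275.17, 125 and 13.3. In the arrays labelled M/M it was 957.29, 345.6 and 76.3. In the arrays labelled Th2 it was 29.7, 14.12 and 498.6. In experiments 1 and 2 the Th1 and M/M values lay above all control and Th2 values, while in experiment 3 the array labelled Th2 was highest and the array labelled Th1 lowest. Control signals differed 8.09-fold among the 3 experiments.

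Relative to the control of the same experiment, the Cxcl2 ratios with M/M cytokines were 18.9, 55.3 and 2.45 in experiments 1, 2 and 3. The mean log2 difference was 3.77 ± 2.29 (SD, n = 3), or 5.02 over experiments 1 and 2, a 32.4-fold mean ratio. Here and below, mean ratios are geometric means, taken from the mean log2 difference. The ratios of experiment 2 rest on a control signal of 6.25, and the mean over 3 experiments was 3.55 on the log2 scale with signals below 10 set to 10 and 2.95 with 16 added to every signal. With Th1 cytokines the ratios were 5.44, 20 and 0.426, with a mean log2 difference of 1.85 ± 2.82 (SD, n = 3) and a 10.4-fold mean ratio over experiments 1 and 2. The SD for Th1 exceeds the mean, and the direction turned in experiment 3. With Th2 cytokines the ratios were 0.587, 2.26 and 16, with a mean log2 difference of 1.47 ± 2.40 (SD, n = 3). Over experiments 1 and 2 the Th2 cultures differed from control by 1.15-fold, which is within the spread of those experiments. By label, the Th1 signal was below the M/M signal in all 3 experiments, at 0.287, 0.362 and 0.174 of it.

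Cxcl10, the T-cell-attracting ligand induced by interferons, was highest with Th1 cytokines in experiments 1 and 2. Its control signals were 31.92, 20.91 and 181.4 in experiments 1, 2 and 3. The arrays labelled Th1 gave 3640.41, 1873.57 and 23.8. The arrays labelled M/M gave 840.08, 207.49 and 5626.4. Those labelled Th2 gave 21.03, 19.47 and 743.8. In experiments 1 and 2 the order from high to low was Th1, M/M, control and Th2, whereas in experiment 3 the array labelled M/M was highest and the array labelled Th1 lay below its control. The experiment 3 control stood above the other controls, which made the control signals differ 8.68-fold.

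The ratio of Cxcl10 to control with Th1 cytokines was 114 and 89.6 in experiments 1 and 2 and 0.131 in experiment 3. Over experiments 1 and 2 this is a 101.1-fold mean ratio, whereas the mean log2 difference over all experiments was 3.46 ± 5.54 (SD, n = 3). With M/M cytokines the ratios were 26.3, 9.92 and 31, a mean log2 difference of 4.33 ± 0.89 (SD, n = 3) and a 16.2-fold mean ratio over experiments 1 and 2. Without experiment 3 this log2 difference was 4.01, below the 6.66 of Cxcl10 with Th1 cytokines. With Th2 cytokines the ratios were 0.659, 0.931 and 4.1, so that Cxcl10 lay slightly below control in experiments 1 and 2 (0.783-fold as a mean ratio) and above it in experiment 3. Its mean log2 difference there was 0.44 ± 1.40 (SD, n = 3). Th1 exceeded M/M cytokines 4.33-fold and 9.03-fold in experiments 1 and 2, and the ratio was 0.00423 in experiment 3. The M/M culture exceeded the Th2 culture 40-fold and 10.7-fold in experiments 1 and 2. In experiment 3 the array labelled M/M exceeded the array labelled Th2 7.56-fold. In the label check those arrays were most like the Th1 and the M/M arrays of the other experiments, respectively.

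**Figure D2:**
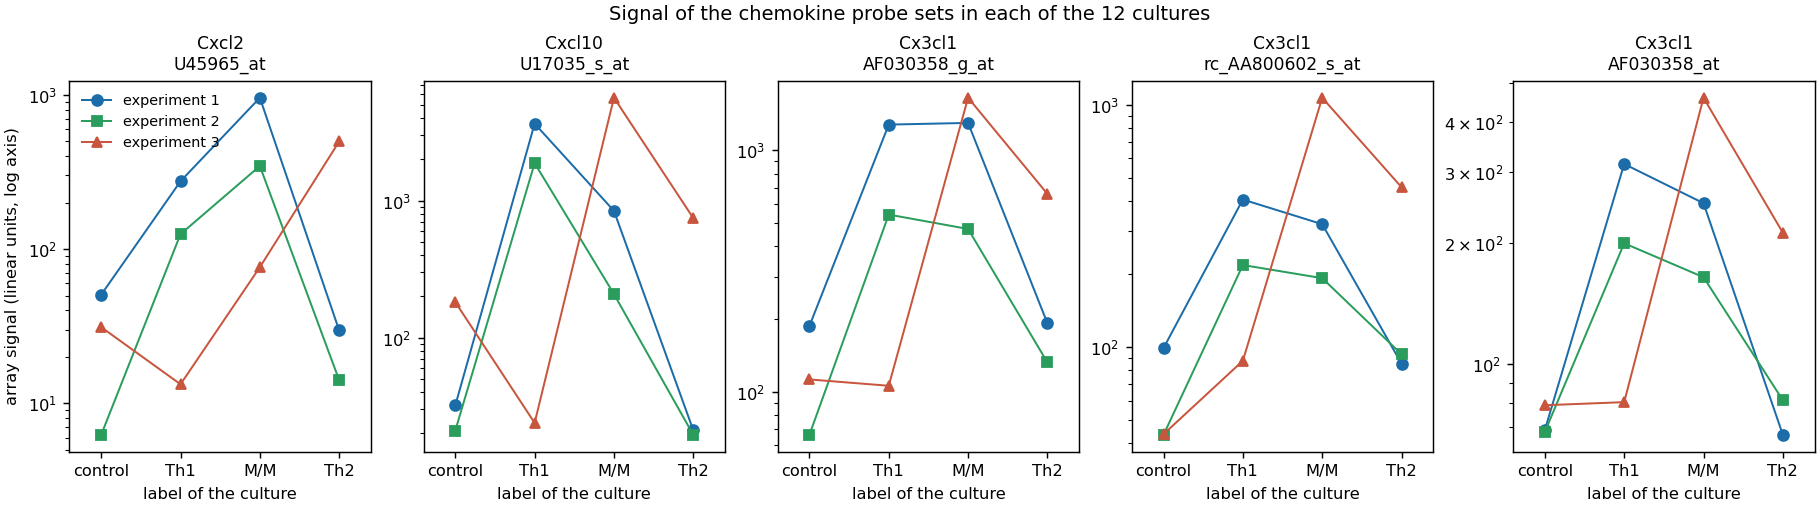
Array signal (linear units on a log axis) of the 5 chemokine probe sets in the 12 cultures, by culture label; each point is 1 array and lines join the 4 arrays of an experiment. In experiments 1 and 2 Cxcl2 peaked with M/M and Cxcl10 with Th1 cytokines, while experiment 3 had its highest Cxcl10 value, 5626.4, in the array labelled M/M and its highest Cxcl2 value, 498.6, in the array labelled Th2.

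Cx3cl1, the membrane-bound ligand of the microglial receptor Cx3cr1, was higher with Th1 and with M/M cytokines to a similar degree in experiments 1 and 2. On its brightest probe set, AF030358_g_at, control signals were 187.35, 66.38 and 112.6 in experiments 1, 2 and 3. The arrays labelled Th1 gave 1278.66, 542.28 and 106, and those labelled M/M gave 1299.42, 472.72 and 1651.9. The arrays labelled Th2 gave 192.36, 132.41 and 660.2. The M/M values lay above all control values, and above the Th2 value of the same experiment, whereas the array labelled Th1 in experiment 3 lay just under its control. Control signals differed 2.82-fold, less than for Cxcl2 and Cxcl10.

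As ratios to control, AF030358_g_at gave 6.94, 7.12 and 14.7 with M/M cytokines, a mean log2 difference of 3.17 ± 0.61 (SD, n = 3) and a 7.03-fold mean ratio over experiments 1 and 2. With Th1 cytokines it gave 6.83, 8.17 and 0.941, a mean log2 difference of 1.91 ± 1.73 (SD, n = 3) and a 7.47-fold mean ratio over experiments 1 and 2. The ratio of Th1 to M/M cytokines was 0.984 and 1.15 in those experiments and 0.0642 in experiment 3. With Th2 cytokines the ratios to control were 1.03, 2 and 5.86, a mean log2 difference of 1.2 ± 1.27 (SD, n = 3) and a 1.43-fold mean ratio over experiments 1 and 2. By label, Cx3cl1 was higher with M/M than with Th2 cytokines 6.76-fold, 3.57-fold and 2.5-fold in experiments 1, 2 and 3.

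On the other Cx3cl1 probe sets the Th1 culture was highest and the M/M culture next to it in experiments 1 and 2, with smaller ratios to control. Of these, AF030358_at was designed on the same transcript sequence as AF030358_g_at. On rc_AA800602_s_at the signal was 98.84, 43.32 and 43.6 in control arrays, 405.5, 217.65 and 87.6 in arrays labelled Th1, 320.84, 192.11 and 1067.2 in those labelled M/M, and 85.24, 93.23 and 456 in those labelled Th2. On AF030358_at it was 68.66, 67.92 and 79.1, then 314.05, 199.61 and 80.5, then 251, 164.42 and 458.6, and then 66.77, 81.4 and 212 in the same order of groups. The controls of AF030358_at agreed within 1.16-fold. Over experiments 1 and 2, Th1 cultures stood 4.54-fold and 3.67-fold above control on rc_AA800602_s_at and AF030358_at, and M/M cultures 3.79-fold and 2.98-fold. The corresponding Th2 ratios were 1.36 and 1.08. Over all experiments the mean log2 differences for M/M were 2.82 ± 1.57 and 1.89 ± 0.63 (SD, n = 3), and both probe sets were above control in 3 of 3 experiments with the M/M label. With the Th1 label in experiment 3 the ratios to control were 2.01 on rc_AA800602_s_at and 1.02, near no difference, on AF030358_at.

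**Figure D3:**
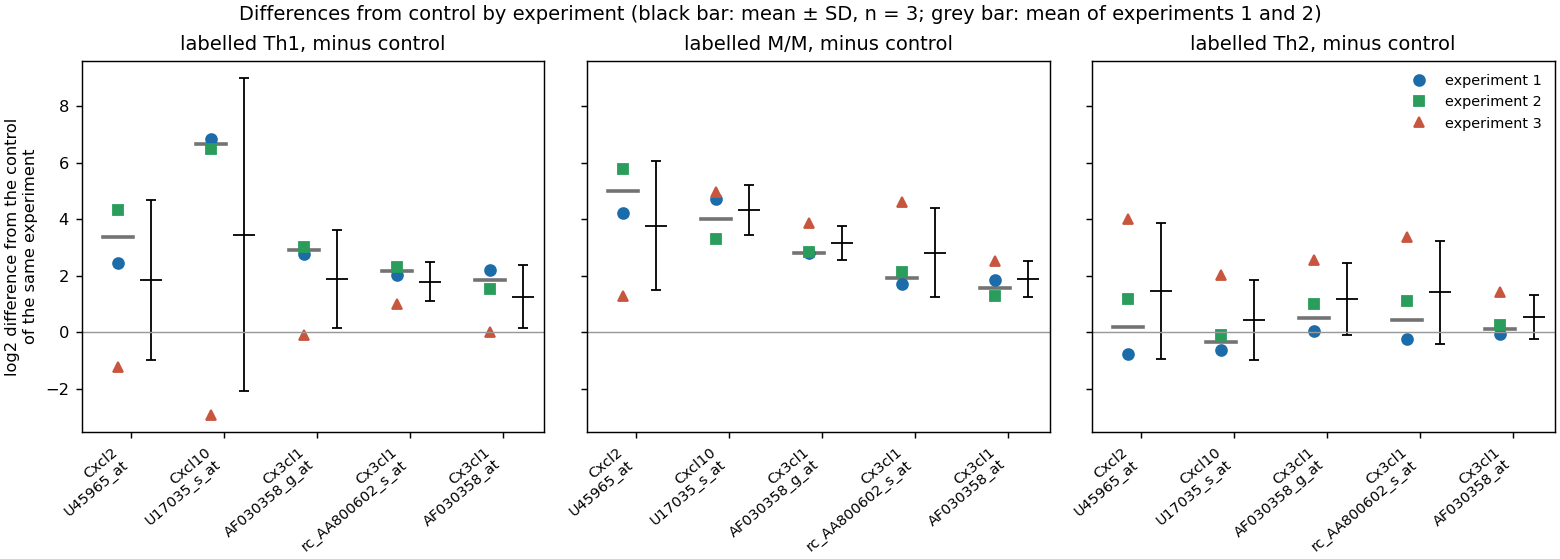
Difference in log2 signal from the control of the same experiment for each chemokine probe set, with a panel for each culture label; points are the 3 experiments, the grey bar is the mean of experiments 1 and 2, and the black bar is the mean ± SD (n = 3). For Cxcl10 with the Th1 label the mean is 3.46 and the SD 5.54, because experiment 3 lies below 0, whereas all 15 points with the M/M label lie above 0.

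Counted over the probe sets, a mean ratio of at least 2-fold with a value above control in 3 of 3 experiments was found for 2 of 5 chemokine probe sets with the Th1 label, 5 of 5 with the M/M label and 1 of 5 with the Th2 label. Among all probe sets 3.1%, 9.11% and 4.89% met this. Over experiments 1 and 2 alone the counts were 5 of 5, 5 of 5 and 0 of 5, where 7.62%, 8.67% and 7.36% of all probe sets met it. No chemokine probe set was at least 2-fold lower in all experiments with any mixture. By limma with experiment as a block and p values adjusted over 8740 probe sets, 0 of the 5 chemokine probe sets passed in any of the 3 comparisons with control, where 0%, 0.263% and 0.0114% of all probe sets passed for Th1, M/M and Th2 (486, 1394 and 590 had an unadjusted p under 0.05). Over experiments 1 and 2 alone the limma counts were 2, 3 and 0 of 5, beside 0.664%, 0.389% and 0% of all probe sets. Between mixtures, 0 of 5 passed over all arrays for Th1 against M/M, Th1 against Th2 and M/M against Th2, beside 0%, 0% and 0% (253, 162 and 343 at an unadjusted p under 0.05). Over experiments 1 and 2 these were 0, 2 and 3 of 5, beside 0%, 0.469% and 0.263%. As the genes were selected on these contrasts, nothing is read from the counts.

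Across the 12 arrays, after the mean of each experiment was subtracted, the log2 signals of the 3 Cx3cl1 probe sets correlated with each other at 0.947 to 0.983. The brightest of them correlated with Cxcl10 at 0.926 and with Cxcl2 at 0.832, and Cxcl2 with Cxcl10 at 0.747. Over the 8 arrays of experiments 1 and 2 these were 0.933, 0.941 and 0.800. The arrays share their experiments and controls, so these correlations describe the arrays and were given no test.

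The genes most like Cxcl2 among 3672 probe sets were Il1a (r = 0.977 over 12 arrays), Ccl3 (0.961), Cyp7b1 (0.960), Il1b (0.953) and Ccl20 (0.952). Il1a and Il1b encode the IL-1 cytokines, proteins of the kind that was added in the M/M mixture, while Ccl3 and Ccl20 encode chemokines of the CC class and Cyp7b1 an oxysterol hydroxylase. Il1a had signals of 19.72, 8.52 and 40.8 in control arrays, 74.64, 64.85 and 31.9 in arrays labelled Th1, 427.8, 199.7 and 148.8 in those labelled M/M, and 23.8, 18.12 and 703.5 in those labelled Th2. Like Cxcl2 it was highest with M/M cytokines in experiments 1 and 2 and in the array labelled Th2 in experiment 3.

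The genes most like Cxcl10 were Rsad2 (0.989), Irf7 (0.984), Mx1 (0.982), Slfn2 (0.980) and RT1-S3 (0.958). Rsad2 and Mx1 encode antiviral proteins induced by interferons, Irf7 a transcription factor of the interferon response, and RT1-S3 a class I histocompatibility molecule. Rsad2 had signals of 27.28, 33.87 and 150.7 in control arrays, 2950, 979.7 and 30.9 in arrays labelled Th1, 850.4, 104.1 and 2926 in those labelled M/M, and 26.94, 30.64 and 725.4 in those labelled Th2. The low value of the array labelled Th1 in experiment 3, under its control, was shared by Cxcl10 and Rsad2.

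The genes most like Cx3cl1 were Vcam1 (0.990), Pdp1 (0.982), Nfkbia (0.981), Ccl5 (0.978) and Nfkb1 (0.976). Vcam1 encodes an adhesion molecule for leukocytes, Nfkbia the inhibitor that holds NF-kappaB in the cytoplasm, Nfkb1 a subunit of that factor, Ccl5 a CC chemokine and Pdp1 a mitochondrial phosphatase. Vcam1 had signals of 117, 14.46 and 71.6 in control arrays, 1504, 521.3 and 41.7 in arrays labelled Th1, 1343, 382.5 and 2513 in those labelled M/M, and 135.1, 55.51 and 1108 in those labelled Th2. Over the 8 arrays of experiments 1 and 2 the correlations of these 15 genes with their chemokine lay between 0.959 and 0.990.

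**Figure D4:**
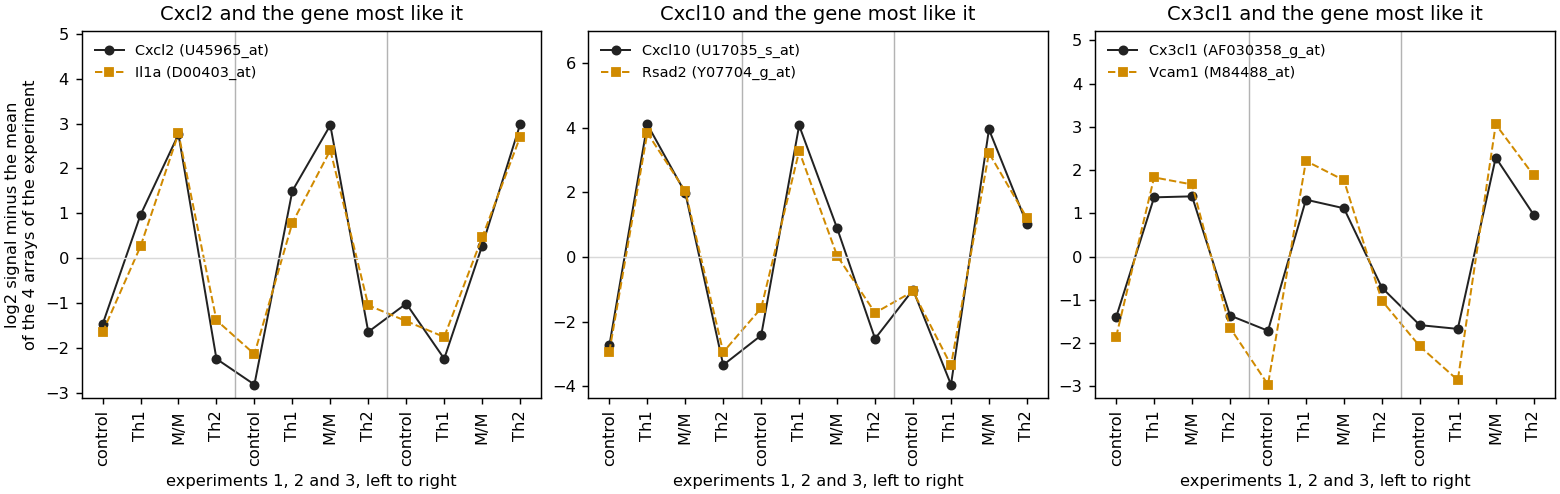
Log2 signal minus the mean of the 4 arrays of its experiment, in the 12 arrays (experiments 1, 2 and 3 from left to right), for Cxcl2, Cxcl10 and Cx3cl1 (black) and the gene most like each (orange, dashed). Il1a followed Cxcl2 with r = 0.977, Rsad2 followed Cxcl10 with 0.989 and Vcam1 followed Cx3cl1 with 0.990.

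Chemokines act through receptors, and the 6 measured receptor genes of a list of 9 showed no change that passed the test. The 6 are Cxcr1, Cxcr2, Cxcr4, Cxcr5, Ackr3 and Cx3cr1. Cxcr3, the receptor of Cxcl10, has no named probe set. By limma 0 of 6 passed for any mixture, with or without experiment 3, and their log2 changes had medians of 0.03 (Th1), 0.27 (M/M) and 0.18 (Th2), beside 0.14, 0.33 and 0.19 over all probe sets. Cx3cr1, the receptor of Cx3cl1, had signals of 143.1, 104.3 and 36.1 in control arrays, 121.5, 106 and 64 in arrays labelled Th1, 102, 111.5 and 29.8 in those labelled M/M, and 143.7, 123.6 and 16.6 in those labelled Th2. Its 3 groups of treated cultures overlapped with the controls, and its log2 changes were 0.20, -0.22 and -0.29 (SE 0.38). Cxcr2, the receptor of Cxcl2, lay between 7.3 and 21.25 in all arrays. Cxcr4, the receptor of the unmeasured Cxcl12, lay between 83.89 and 192.4. Cxcr5, which guides B cells, had signals between 1 and 11.6 and the lowest unadjusted p of the pathway genes for Th1 against M/M (0.00249, log2 change -1.87, SE 0.50, adjusted p = 0.903 by limma). The Cxcr5 signals were 1, 1 and 3.2 in arrays labelled Th1 and 4.3, 3.1 and 11.6 in those labelled M/M, so this change rests on very low values.

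Of the other CXC and C ligands, 6 of 12 were measured (Cxcl3, Cxcl6, Cxcl13, Cxcl14, Pf4 and Xcl1). Over all arrays 0 of the 6 passed for any mixture, with median log2 changes of 0.19, 0.79 and 0.63 for Th1, M/M and Th2. Over all probe sets the medians were 0.14, 0.33 and 0.19. Without experiment 3 the medians of the list were 0.30, 1.015 and 0.08, beside 0.21, 0.18 and 0.19 over all probe sets. Cxcl6, another ligand that attracts neutrophils, had signals of 49.97, 37.09 and 23.7 in control arrays, 174.7, 116 and 18.9 in arrays labelled Th1, 1450, 397.4 and 98 in those labelled M/M, and 39.35, 40.21 and 618.8 in those labelled Th2. Its highest array was thus the M/M array in experiments 1 and 2 and the array labelled Th2 in experiment 3, as for Cxcl2. With M/M cytokines its log2 change was 3.44 (SE 1.09, adjusted p = 0.191 by limma) over all arrays and 4.14 (SE 0.45, adjusted p = 0.0255) in experiments 1 and 2, where it also passed against Th2 (4.25, SE 0.45, adjusted p = 0.0359). Cxcl14, a CXC ligand expressed without stimulation in many tissues, lay between 147.2 and 1339 and did not pass with M/M cytokines (log2 change 0.80, SE 0.25, adjusted p = 0.190). Xcl1, a C class ligand, had a signal of 114.6 in the experiment 3 array labelled Th2 and of at most 8.64 in the other 11 arrays.

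**Figure D5:**
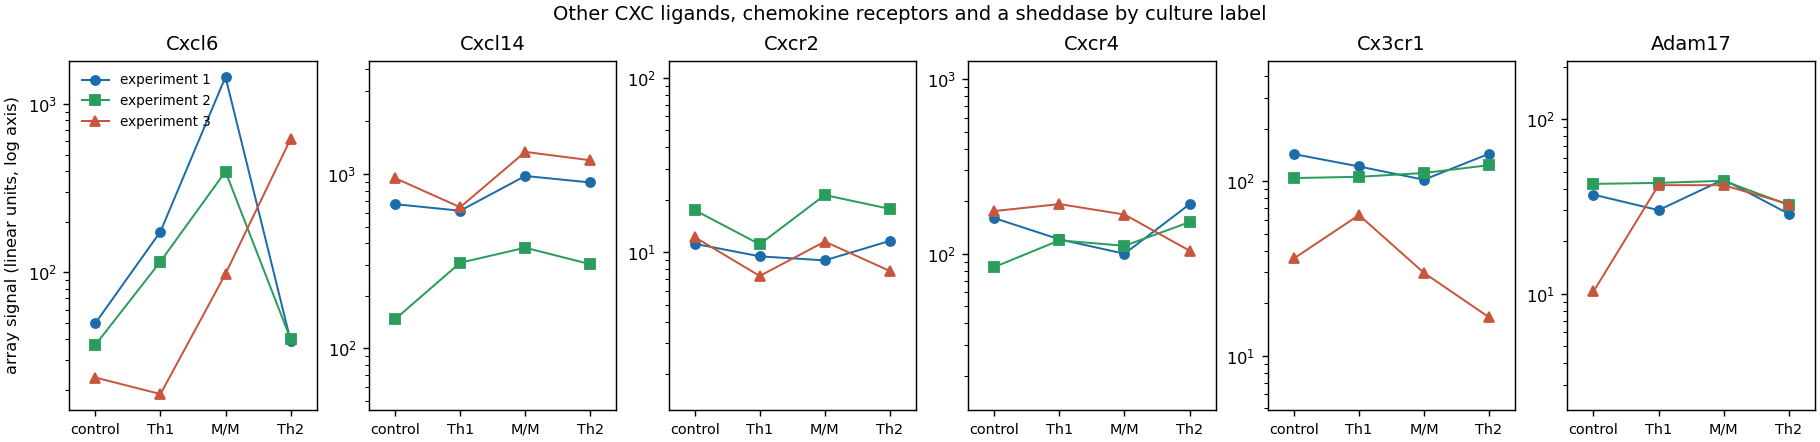
Array signal (linear units on a log axis) of the ligands Cxcl6 and Cxcl14, the receptors Cxcr2, Cxcr4 and Cx3cr1, and the protease gene Adam17 by culture label; each point is 1 array and lines join the arrays of an experiment. Cxcl6 reached 1450 and 397.4 with M/M cytokines in experiments 1 and 2, whereas Cx3cr1 stayed between 102 and 143.7 in those experiments.

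All 11 listed genes for the shedding and cleavage of chemokines were measured, and 1 of them passed, with M/M cytokines. This was Timp1, which encodes an inhibitor of metalloproteases. It rose from 967.4, 394.7 and 716.4 in control arrays to 1840, 913.6 and 2103 in arrays labelled M/M. Its log2 change was 1.23 (SE 0.23, adjusted p = 0.0486 by limma, higher in 3 of 3 experiments by label). In experiments 1 and 2 the log2 change was 1.07 (SE 0.13, adjusted p = 0.0367). The experiment 3 array labelled Th2 had 1599. The sheddases of Cx3cl1 did not pass, with log2 changes of 0.15 (SE 0.28) for Adam10 and 0.79 (SE 0.45) for Adam17 with M/M cytokines. Mmp3, a matrix metalloprotease, had a log2 change of 4.27 with M/M cytokines (SE 1.11, adjusted p = 0.128) and signals of 971.8, 109.3 and 127.9 against 11.24, 14.31 and 11.7 in control arrays. Ctss, a lysosomal protease of microglia, lay between 1715 and 3171.

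Of 9 carriers of glycosaminoglycans, the sugar chains that hold chemokines on cell surfaces, Sdc4 passed with M/M cytokines. Sdc4 encodes syndecan 4, and its signal rose from 1541, 747.4 and 1394 in control arrays to 3653, 2687 and 4401 in arrays labelled M/M. The log2 change of Sdc4 was 1.58 (SE 0.28, adjusted p = 0.0385 by limma, higher in 3 of 3 experiments by label). In the experiment 3 array labelled Th2 its signal was 3553. Without experiment 3 its log2 change was 1.55 (SE 0.15, adjusted p = 0.0221). Among the 12 measured of 18 genes of receptor signalling 0 passed for any mixture, with or without experiment 3. Rgs1, which limits signalling by G proteins, had its highest signals with the Th2 label, 367.9, 95.51 and 43.9, and a log2 change of 1.5 (SE 0.45, adjusted p = 0.642). Gnb1, a G protein subunit, had a log2 difference of 1.79 (SE 0.55, adjusted p = 0.998) between M/M and Th2.

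Of 24 genes of the TNF, IL-1 and NF-kappaB pathway, 11 were measured, and the call depended on experiment 3. Over all arrays 1 passed, the mitochondrial superoxide dismutase gene Sod2. It rose from 325.9, 228.6 and 98.8 in control arrays to 2053, 1122 and 594.6 in arrays labelled M/M. Its log2 change was 2.51 (SE 0.40, adjusted p = 0.0251 by limma, higher in 3 of 3 experiments by label). The experiment 3 array labelled Th2, which was most like M/M arrays in the label check, had 460.8. With Th1 and Th2 cytokines its log2 changes were 1.52 and 1.46 (adjusted p = 0.641 and 0.597). In experiments 1 and 2, 5 passed with Th1 cytokines and the same 5 with M/M cytokines, namely Nfkb1, Nfkbia, Icam1, Vcam1 and Sod2, and 0 with Th2 cytokines. There Nfkbia had log2 changes of 1.96 (SE 0.13, adjusted p = 0.00677) with Th1 and 1.95 (adjusted p = 0.0078) with M/M cytokines. The adhesion molecule gene Icam1 had 2.62 and 2.53 (adjusted p = 0.0161 and 0.0221), and Vcam1 4.43 and 4.12 (adjusted p = 0.0153 and 0.0221). Over all arrays Vcam1 had log2 changes of 2.69 with Th1 and 4.46 with M/M cytokines (adjusted p = 0.857 and 0.127).

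The interferon pathway had 20 of 30 listed genes measured, and 0 passed over all arrays for any mixture. The list's median log2 change was 1.04 in Th1, 1.59 in M/M and 0.42 in Th2 cultures. Without experiment 3 these medians were 1.81, 1.11 and 0.22, beside 0.21, 0.18 and 0.19 over all probe sets, and 8 genes passed with Th1 cytokines, all upward, with 0 for M/M or Th2. The 8 are Stat2, Irf1, Irf7, Mx1, Gbp2, Psmb9, Tap1 and Tap2, which serve interferon signalling, antiviral defence and antigen processing. Irf1, a transcription factor downstream of interferon-g, had signals of 324.9, 93.81 and 152.8 in control arrays, 2850, 1761 and 116.2 in arrays labelled Th1, and 1188, 381.1 and 4575 in those labelled M/M. Its log2 change with Th1 cytokines was 3.68 in experiments 1 and 2 (SE 0.29, adjusted p = 0.00965) and 2.32 over all arrays (adjusted p = 0.857). The peptide transporter gene Tap1 had 4.07 (SE 0.25, adjusted p = 0.00634) and 2.65 (adjusted p = 0.857). After Sod2, the lowest unadjusted p values for Th1 over all arrays were those of Tap2 (0.00513, log2 change 2.73) and Nfkb1 (0.00791, log2 change 1.46). For Th2 the next after Sod2 was Socs3, a feedback inhibitor of cytokine receptors (0.00533, log2 change 1.40).

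Over all 75 pathway genes, limma called 3 upward for M/M (Sod2, Sdc4 and Timp1) and 0 for either other mixture, and the unadjusted p was under 0.05 for 15 genes (Th1), 29 (M/M) and 8 (Th2). Between mixtures it called 0 for Th1 against M/M, Th1 against Th2 and M/M against Th2, with 8, 4 and 16 at an unadjusted p under 0.05. Without experiment 3, which the label check had singled out, it called 13, 8 and 0 against control and 0, 10 and 5 between mixtures. Among all probe sets 0.664%, 0.389% and 0% passed there against control, and 0%, 0.469% and 0.263% between mixtures. The pathway lists were chosen with earlier results of these data known, so these counts are not independent of that choice. The 3 calls for M/M were lost when arrays were centred on their medians, without the replicate block, without experiment 2, and without any 1 of the M/M arrays or the controls of experiments 2 and 3. For Th1 against M/M in experiments 1 and 2 the median log2 difference of the interferon list was 1.21, and Tap1 had 2.39 (SE 0.25, adjusted p = 0.152 by limma). With arrays centred on their medians, 1 pathway gene passed there.

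Levels of cell type markers differed between groups and experiments. The summed signal of 8 measured of 10 microglial and macrophage markers was 2367 to 5422 in control arrays, 3829 to 7310 in those labelled Th1, 5909 to 8646 in those labelled M/M and 3962 to 5929 in those labelled Th2. Cd14, which is on that list, had signals of 773.4, 365.1 and 365.5 in control arrays and 3433, 2735 and 2185 in those labelled M/M. The median log2 difference of the microglial list from control was 0.07, 0.55 and 1.13 in the M/M arrays of experiments 1, 2 and 3, and -0.05, 0.91 and 0.51 in the Th1 arrays. In experiment 1, Csf1r (26.67 in control, 18.78 with M/M), Ptprc (325.4 and 269) and Cx3cr1 (143.1 and 102) had lower signals with M/M cytokines. The 7 measured of 8 astrocyte markers summed to 4525 to 8681 in control arrays and 5573 to 7494 in those labelled M/M. The 7 fibroblast and meningeal markers summed to 4487, 802.6 and 2501 in the controls of experiments 1, 2 and 3, and to 3581, 1340 and 2881 in arrays labelled M/M. The 4 measured of 7 endothelial markers summed to 36 to 234.6 and the 6 measured of 7 T cell markers to 92 to 181.2 over the groups, with the defining T cell gene Cd3d between 1.7 and 9.61. Whether microglial or fibroblast content took part in the chemokine values was not tested.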

How the data were processed

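RNA of 12 rat glial cultures was measured on Affymetrix arrays. The authors calculated a linear intensity value per probe set with dChip from the scanned arrays and deposited it, and no normalization between arrays is stated in the sources used here. Gene symbols came from the annotation of the array, with 1 symbol for 7006 probe sets, several for 308 and none for 1426. After 59 control probe sets were left out, 8740 of 8799 were tested.

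Signals below 0.1 were set to 0.1, log2 was taken and arrays were not rescaled. Groups were taken from the labels. The title codes pair the 4 cultures of an experiment: deviations from group means correlated at 0.439 to 0.708 within an experiment (18 pairs) and at -0.625 to 0.357 between experiments and groups (36 pairs). Groups were compared in limma 3.58.1 under R 4.3.3, where the experiment entered as a replicate block and the variance prior followed the mean signal. Benjamini-Hochberg adjustment ran over the whole table of probe sets, with a threshold of 0.05. The fit was tested on simulated data. The chemokines and all gene lists were chosen with earlier results of these data known. Pathway genes were read by their brightest probe set, and those were named that passed in any comparison or else had the 3 lowest unadjusted p values in it. Other pathway genes (Cx3cr1, Cxcr2, Cxcr4, Cxcl6, Cxcl14, Adam10, Adam17, Mmp3, Ctss, and those that passed in experiments 1 and 2) were named for their role or after their values were seen. For each chemokine the 5 genes with the highest Pearson correlation were named, among probe sets with 1 symbol and at least median signal. Promoter windows (250 bases before to 50 after the start) came from RefSeq, build GRCr8. As alternatives, the replicate block was dropped or made random, arrays were quantile normalized or centred, low signals were treated otherwise, dim probe sets were left out and the variance trend was dropped. Others were screening criteria modelled on the methods, and each culture or experiment left out.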

Additional observations from a re-analysis of the deposited data

How the results depend on the processing

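With quantile normalization, arrays centred on their medians, signals below 10 set to 10 or 16 added before log2, the log2 difference of Cxcl2 with M/M cytokines was the only chemokine difference to move by over 1.5 times in fold (3.77 to 2.95 with 16 added). Leaving out an experiment moved more of them. Cxcl10 with Th1 cytokines went from 3.46 to 1.78, 1.95 and 6.66 without experiment 1, 2 and 3, and Cxcl10 with Th2 cytokines from 0.44 to -0.35 without experiment 3. Dropping the block leaves these means as they are by construction. Counts of limma calls also moved. For M/M against control, 23 probe sets and 3 pathway genes fell to 0 and 0 without the replicate block, with quantile normalization, with arrays centred on their medians, with signals below 10 set to 10 and with no variance trend, and to 14 and 1 when 16 was added before log2. The 1 probe set called for Th2 fell to 0 in the same settings except the last. The random replicate block gave 29 probe sets and the filter on dim probe sets 34 for M/M. By screening criteria modelled on the methods, 193, 291 and 204 probe sets passed for Th1, M/M and Th2. These asked for a mean change over 2-fold and p under 0.2 in an unpaired analysis of variance over all groups. The same p served every mixture, whereas the paper gives a p for each mixture against control, so the counts are not those of the paper. When replicates were left out, probe sets called ranged from 0 to 82 for Th1 (58 without experiment 3 and 82 without its array labelled Th1), from 0 to 183 for M/M (183 without the experiment 3 array labelled Th1) and from 0 to 3 for Th2. Pathway genes called ranged from 0 to 15 for Th1, from 0 to 17 for M/M, from 0 to 10 for Th1 against Th2 and from 0 to 5 for M/M against Th2, and stayed at 0 for Th2 and for Th1 against M/M. With experiments 1 and 2 alone and arrays centred on their medians, a setting chosen after seeing the data, 120, 120 and 0 probe sets passed for Th1, M/M and Th2, and 16, 14 and 0 pathway genes. Between mixtures that setting called 1 pathway gene for Th1 against M/M, 16 for Th1 against Th2 and 11 for M/M against Th2. The cause of these changes was not tested. Signals near the floor limit the dimmest receptors and ligands.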
